A study of Arabidopsis thaliana with 30 samples.

Results

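The rows examined here are those of the Arabidopsis mitochondrial genome left after 20 listed genes of the respiratory chain and the ATP synthase were taken out. They were chosen by locus identifier alone. Every row of the deposited table whose identifier starts with ATMG was taken, and the 20 identifiers of atp, cox, cob and nad genes were left out. This gave 79 members among 92 mitochondrial rows and 27827 rows in all, and 13 of the 20 excluded identifiers also had a row. The samples were wild-type Columbia (Col-0) seeds, after-ripened until dormancy was lost and then imbibed at 22 °C in continuous light. At each of 5 stages, polysomal mRNA (P) and total mRNA (T) of 3 biological replicates were hybridized to 30 Affymetrix Gene 1.1 ST arrays. The stages were dry seeds and seeds or seedlings at 6, 26, 48 and 72 hours after the start of imbibition (HAI). P came from pooled sucrose gradient fractions with 2 or more ribosomes per mRNA and T from the raw extract, and each replicate was a bulk of 100 plants with all tissues of the seed or seedling together.

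Plant mitochondria keep a small genome with its own RNA polymerases and ribosomes, most of whose parts are encoded in the nucleus. Besides respiratory subunits, the mitochondrial genome encodes proteins of the cytochrome c maturation pathway, a maturase that helps to splice introns, a protein of membrane transport, some ribosomal proteins, ribosomal RNAs and tRNAs, together with many open reading frames (ORFs) of no known function. Its transcripts are made from long units that are then cut, edited and partly degraded, so that a steady level reflects RNA processing and decay as well as transcription. In Arabidopsis a large stretch of mitochondrial DNA is also inserted in nuclear chromosome 2. During germination, the mitochondria of the dry seed become the active organelles of the seedling.

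The sources used here do not pair the ATMG identifiers with gene names. RefSeq's TAIR10.1 gene table gives a symbol to 66 genes on the mitochondrial molecule, but 0 of the 79 identifiers were found in it, so members are called by identifier and no function is given to them. Of the 79 rows, 28 held exactly the same value on all 30 arrays as a nuclear row, in every case a locus starting with AT2G07 in the chromosome 2 insertion. RefSeq lists 9 of these nuclear partners as tRNA genes, for the amino acids serine, methionine (3 loci), proline, asparagine, glutamate, tryptophan and aspartate. One of them, ATMG00930, shared its values with the plastid row ATCG00610 too. A further 2 pairs of members were identical to each other, ATMG00080 with ATMG00090 and ATMG00170 with ATMG00620, which left 77 distinct rows. The 28 shared rows therefore measure the mitochondrial transcript and its nuclear copy together, and 51 members had no identical nuclear or plastid row. When identical rows were left aside, the most closely correlated remaining row of the table was an AT2G07 locus for 54 members, some of the 28 among them.

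The arrays followed their labels in the stages they came from. All 6 dry seed markers (cruciferins, 2S albumins and an oleosin) were lower and all 3 green seedling markers were higher in T at 72 HAI than in dry seeds, with median log2 changes of -7.13 and 7.53. Levels are log2 values from robust multi-array averaging (RMA), and the median over all 27827 rows still differed between arrays, from 3.53 to 4.15. A change here is relative to the other transcripts of an array, and a smaller share of mitochondria-rich cells cannot be told apart from less RNA per cell. Testing covered the 17061 genes whose 3 replicates all exceeded 4 in 1 or more groups, and all 79 members were among them. A difference was called when limma's Benjamini-Hochberg adjusted p was below 0.05 and the log2 change exceeded 1 in size.

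Members covered almost the whole range of the arrays. The median member on each array, averaged over the replicates, was 7.19 ± 0.07 in P of dry seeds (log2 level, SD, n = 3). It was 6.84 ± 0.28 and 7.28 ± 0.13 in P at 6 and 26 HAI, and 7.63 ± 0.21 and 6.48 ± 0.23 in P at 48 and 72 HAI. In T it was 7.15 ± 0.05 in dry seeds, 7.44 ± 0.21, 8.05 ± 0.21 and 8.98 ± 0.01 at 6, 26 and 48 HAI, and 8.63 ± 0.15 at 72 HAI. The median thus increased over the first 48 h in T by more than the replicate spread, while P lay between 6.84 and 7.63 up to 48 HAI and then dropped below its dry seed level. At 72 HAI the mean level of 14 members lay under the noise level of 4 in P, against 1 member in T. In dry seeds these numbers were 5 in P and 7 in T.

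**Figure D1:**
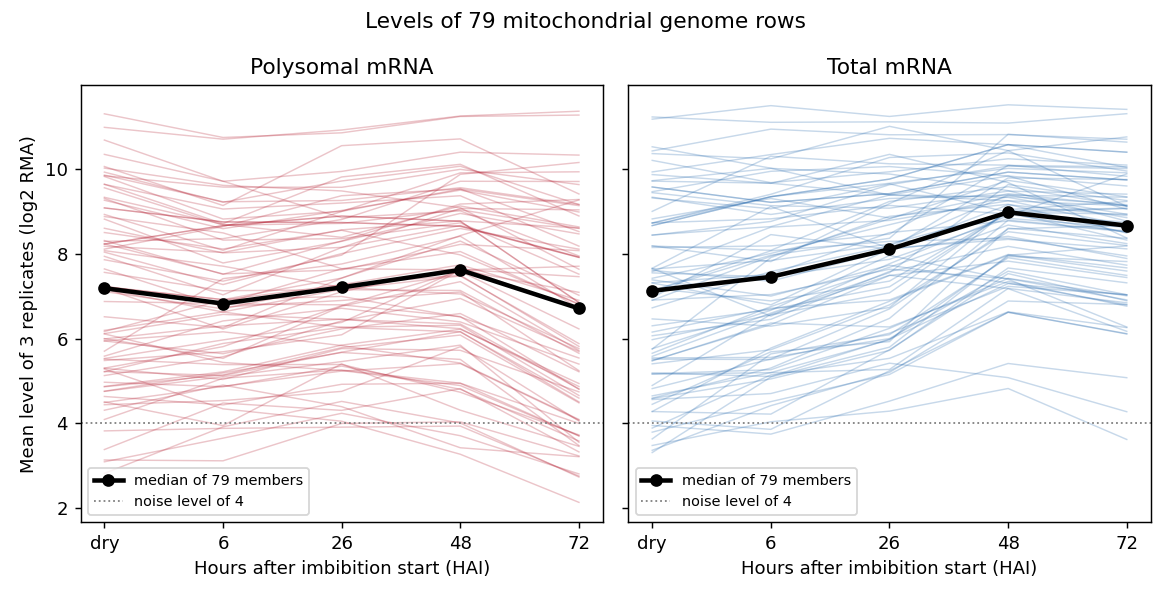
Mean log2 RMA level of each of the 79 members (thin lines, mean of 3 replicates) over the 5 stages, in polysomal mRNA on the left and total mRNA on the right. The black line is the median over members of these means and the dotted line the noise level of 4. The median climbs to 48 HAI in total mRNA and bends down between 48 and 72 HAI in polysomal mRNA, where 14 members end under the noise level.

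The 2 highest members by mean level over the 30 arrays were ATMG01120 and ATMG01200. ATMG01120 had 11.26, 11.33 and 11.21 in P and 11.46, 11.42 and 11.33 in T at 72 HAI, against 11.31, 11.31 and 11.27 in P and 11.22, 11.22 and 11.08 in T of dry seeds. ATMG01200 had 11.52, 11.21 and 11.35 in P and 11.38, 11.40 and 11.13 in T at 72 HAI. Neither was called in any comparison, and for ATMG01200 the P and T arrays of that stage overlapped. At the other end, ATMG00250 averaged 3.78 over the 30 arrays, and it shares its row with a chromosome 2 tRNA gene for methionine. ATMG01240 averaged 4.18 with replicates that differed by several log2 units, such as 4.19, 1.02 and 1.21 in P at 72 HAI, so its values carry little precision. ATMG01300 was next with a mean of 4.42.

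In total mRNA nearly all members called over the first 48 h were higher at the later stage. At 6 HAI against dry seeds 15 were higher and 1 lower (background 16.8% of all tested genes higher and 9.93% lower), and the median member changed by 0.39. At 26 HAI against 6 HAI 13 were higher and 0 lower, with a median of 0.59 (15.5% and 10.2%). In both intervals the share of members called higher, 19% and 16.5%, was near the background. At 48 HAI against 26 HAI 33 were higher, 41.8% of the members, and 0 lower, while 15.3% of all tested genes were higher and 14.9% lower, and the median was 0.74 for members and -0.18 for all genes. In the last interval 0 were higher and 5 lower (6.64% and 5.37%), and the median was -0.32.

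The count for 26 HAI against 6 HAI depended on how arrays were scaled. With array medians set equal, which shifted each change of this interval by -0.31, it was 4 higher and 1 lower. The count for the last interval was 3 without T at 72 HAI replicate 2. Replicate 1 of T at 26 HAI was above the mean of the other 2 replicates by over 0.5 for 25 of the 79 members, and its part in the result was examined by leaving it out, which gave 10 calls in place of 13.

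The largest rises in T were among members that were low in dry seeds. ATMG00860 had 8.58, 8.72 and 8.31 at 72 HAI, against 4.07, 4.89 and 4.83 in dry seeds, with all arrays of the later stage above all arrays of the earlier one. Its log2 change was 3.94 ± 0.32 (SE; limma, adjusted p = 2.0e-11). ATMG00880 had 7.66, 7.59 and 7.53 at 72 HAI, against 4.61, 2.01 and 3.32 in dry seeds, a change of 4.28 ± 0.40 (adjusted p = 3.0e-10). Its dry seed mean lay below the noise level of 4 and its arrays there spread widely, so the size of this change is uncertain. ATMG00800, whose row is shared with a nuclear tRNA gene for glutamate, changed by 3.91 ± 0.27 (adjusted p = 5.8e-13).

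ATMG00950, with 10.71, 10.69 and 10.50 at 72 HAI against 6.99, 7.37 and 7.01 in dry seeds, made most of its rise between 26 and 48 HAI. That step was 2.45 ± 0.19 (adjusted p = 6.3e-11), and its values tracked those of AT2G07746, a nuclear tRNA gene for glutamine, with a correlation of 0.998 over the 30 arrays. The highest mean T level was that of dry seeds for 2 members, of 6 HAI for 5, of 26 HAI for 11, of 48 HAI for 53 and of 72 HAI for 8.

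A few members ran against this trend in T. ATMG01210, which shares its row with the transcribed pseudogene AT2G07826, was lower at each stage in order. It had 8.71, 8.73 and 8.56 at 72 HAI against 10.56, 10.53 and 10.47 in dry seeds (change -1.86 ± 0.13, adjusted p = 1.4e-12). ATMG00040 and ATMG01090 held or gained up to 26 HAI and then fell. ATMG00040 had 9.87, 9.89 and 9.84 in dry seeds, 9.48, 9.85 and 9.70 at 48 HAI and 8.39, 8.41 and 8.31 at 72 HAI. ATMG01090 had 9.20, 9.06 and 9.09 at 72 HAI, against 10.48, 10.39 and 10.43 at 48 HAI. These were the 3 members called lower at 72 HAI against dry seeds.

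In polysomal mRNA few members were called up to 48 HAI, and the median change of each interval lay below that in T. At 6 HAI against dry seeds 3 were higher and 2 lower (background 16.9% and 15.1%), with a median of -0.30. At 26 HAI against 6 HAI 6 were higher and 0 lower (14.7% and 9.77%), with a median of 0.36, and at 48 HAI against 26 HAI 5 were higher and 1 lower (14% and 14.6%), with a median of 0.30. Between 48 and 72 HAI 0 members were higher and 43 lower, 54.4% of the members beside 7.34% of all tested genes (6.52% higher), and the median was -1.13 for members and -0.06 for all genes. The first 3 counts were small and moved with scaling. They became 3 higher and 4 lower, 2 and 2, and 3 and 2 with array medians set equal, and the first became 2 higher and 7 lower after a further quantile normalization. They also moved when 1 array was left out, the first to 10 without P of dry seeds replicate 1, the second to 3 without P at 26 HAI replicate 3 and the third to 11 without that same array.

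The drop at 72 HAI was seen in members of low and of high level. ATMG01250 had 5.60, 5.82 and 4.32 in P at 72 HAI, against 7.02, 7.38 and 6.90 at 48 HAI, with no overlap of the arrays (change -1.85 ± 0.32, adjusted p = 4.9e-05). ATMG00880 changed by -2.29 ± 0.40 over the same interval (adjusted p = 6.2e-05), to 2.93, 4.0 and 3.74 at 72 HAI against 5.51, 6.12 and 5.91 at 48 HAI, and the later mean lay below the noise level. At a higher level, ATMG01090 had 9.44, 9.16 and 9.63 at 72 HAI, against 10.67, 10.81 and 10.64 at 48 HAI (change -1.30 ± 0.15, adjusted p = 1.1e-07). In P, 48 members had their lowest mean of the 5 stages at 72 HAI.

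Setting P against T at each stage gives polysome occupancy, which is P minus T on the log2 scale. In dry seeds the members were balanced, with 5 higher and 0 lower in P than in T (background 2.69% and 0.697%) and a median of -0.05. At 6 HAI 0 were higher and 7 lower (1.26% and 2.71%), with a median of -0.56, and at 26 HAI 0 were higher and 19 lower (0.697% and 2.79%), with a median of -0.68. At 48 HAI 0 were higher and 41 lower (3.7% and 6.4%), 51.9% of the members, with a median of -1.28. At 72 HAI 1 was higher and 50 lower (4.26% and 7.56%), 63.3% of the members, with a median of -1.81. The median over all tested genes stayed between 0.05 and 0.10 at the 5 stages. The 41 members lower in P at 48 HAI were all lower at 72 HAI too.

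The count at 26 HAI rested on few arrays, since it fell to 6 without T replicate 1 and was 24 without T replicate 2. At 6 HAI it was 11 without T replicate 2, and 12 after a further quantile normalization. In dry seeds it was 8 without T replicate 3, and quantile normalization made it 5 higher and 2 lower. The counts at 48 and 72 HAI stayed between 39 and 41 and between 48 and 54 when any 1 array was left out.

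**Figure D2:**
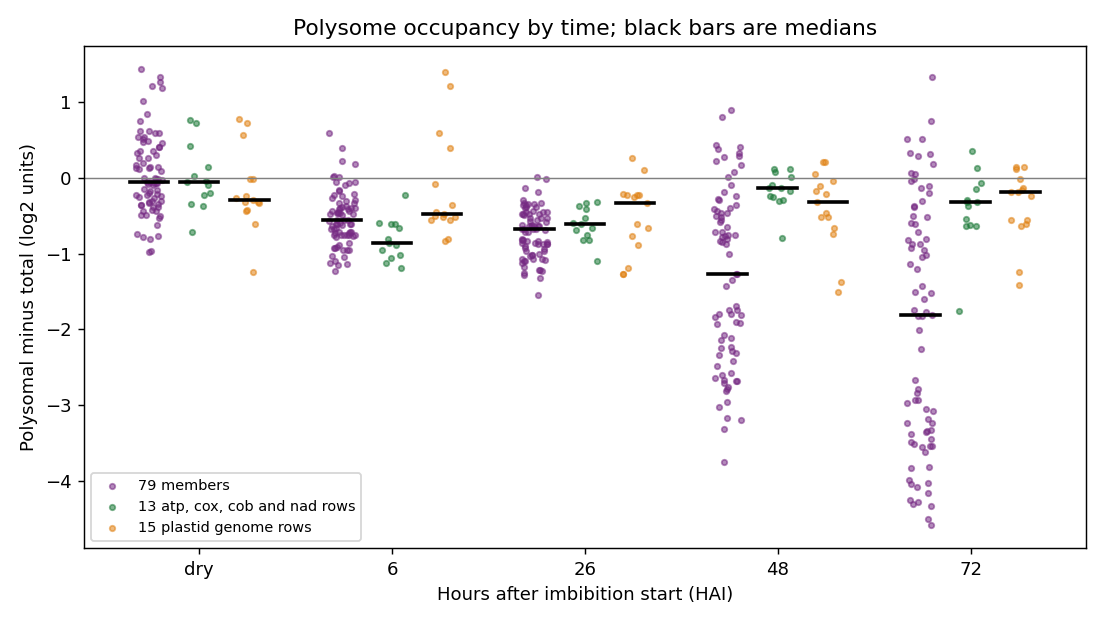
Polysome occupancy (polysomal minus total mean log2 level) at the 5 stages for the 79 members, the 13 atp, cox, cob and nad rows and the 15 plastid rows. Each point is 1 row and black bars are medians. The members spread downwards at 48 and 72 HAI to -4.59, while the medians of the other organelle rows stay between -0.86 and -0.06.

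The widest gaps at 72 HAI were those of ATMG00820, ATMG01250 and ATMG00600. ATMG00820 had 5.01, 4.94 and 4.03 in P against 9.03, 9.45 and 9.28 in T, a difference of -4.59 ± 0.27 (adjusted p = 2.3e-12). ATMG01250 had 5.60, 5.82 and 4.32 in P against 9.75, 9.89 and 9.61 in T, a difference of -4.50 ± 0.32 (adjusted p = 4.9e-11). In neither did any P array come near a T array, and the P values of both lay close to the noise level.

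ATMG00600 had 4.46, 4.50 and 4.84 in P against 9.11, 8.94 and 8.75 in T at 72 HAI, a difference of -4.33 ± 0.24 (adjusted p = 9.1e-13). In dry seeds the same member had 7.01, 7.23 and 7.27 in P against 6.96, 7.41 and 7.19 in T, where the arrays overlapped and the difference was -0.02 ± 0.24 (adjusted p = 0.97). ATMG00600 shares its row with AT2G07809, a transcribed pseudogene, so its values cannot be assigned to either copy. ATMG01310, another shared row, showed the widest gap at 48 HAI, with 3.86, 3.25 and 3.18 in P against 7.05, 7.18 and 7.33 in T (difference -3.76 ± 0.29, adjusted p = 6.8e-10). All 3 of these P arrays lay below the noise level, so neither the size of the gap nor its rank is well measured.

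One member, ATMG01000, was higher in P than in T at 72 HAI. It had 9.39, 9.23 and 9.22 in P against 8.01, 8.15 and 7.68 in T, a difference of 1.33 ± 0.18 (adjusted p = 1.7e-06). It was also among the 5 members higher in P in dry seeds, with 8.47, 8.42 and 8.04 in P against 7.12, 7.24 and 7.02 in T (1.19 ± 0.18, adjusted p = 5.7e-05). At 6 HAI the order was the other way, with 7.66, 7.43 and 7.46 in P against 8.24, 7.99 and 7.98 in T, and the change of occupancy between these stages was -1.74 ± 0.25 (adjusted p = 9.8e-05). The other 4 members higher in P in dry seeds were ATMG00570, ATMG00590, ATMG00880 and ATMG00960, and of these ATMG00570, ATMG00590 and ATMG00880 were lower in P at 72 HAI.

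**Figure D3:**
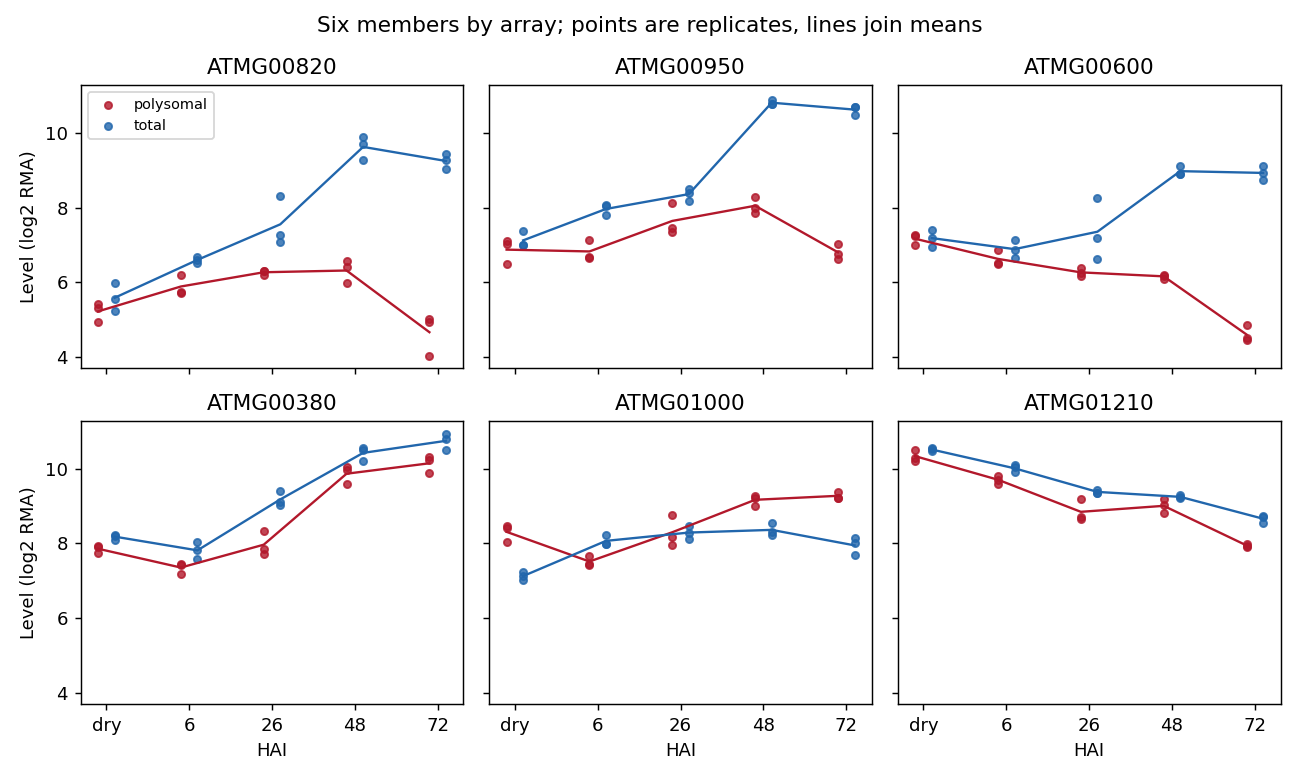
Log2 RMA level on each array for 6 members over the 5 stages, polysomal mRNA in red and total mRNA in blue. Points are replicates and lines join their means. In ATMG00820, ATMG00950 and ATMG00600 the fractions separate by 72 HAI, ATMG00380 climbs and ATMG01210 drops in both, and ATMG01000 ends higher in polysomal mRNA. The rows of ATMG00600, ATMG00380 and ATMG01210 are shared with chromosome 2 loci.

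Over the whole course, from dry seeds to 72 HAI, the fractions moved apart. In T 50 members were higher and 3 lower at 72 HAI than in dry seeds, where the background was 33% and 27.1%, and the median was 1.51. In P 8 were higher and 28 lower (background 30.2% and 31.1%), and the median was -0.56. The share called lower in P, 35.4%, was near the background. Setting array medians equal moved the split to 38 higher and 7 lower in T and to 4 higher and 39 lower in P. This scaling shifted each change by -0.53 in T and by -0.44 in P.

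Crossing the calls, 18 members were higher in T and lower in P, and 24 were higher in T with no call in P. A further 8 were higher in both, 9 were lower in P with no call in T, 1 was lower in both, 2 were lower in T only and 17 were called in neither. These classes were counted for the members only. How large a share of all tested genes falls in each class was not computed, so these counts have no background. The change of occupancy itself, tested between 72 HAI and dry seeds, was called lower for 51 members and higher for 0 (background 9.13% lower and 4.28% higher), with a median of -1.78. This comparison was added after the others had been seen.

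ATMG00600 illustrates the first class, with a change of 1.75 ± 0.24 in T (adjusted p = 3.0e-07) and -2.57 ± 0.24 in P (adjusted p = 2.8e-10). ATMG00940, whose row is shared with another transcribed pseudogene, changed by 1.90 ± 0.27 in T and -2.31 ± 0.27 in P (adjusted p = 3.7e-07 and 1.3e-08). Among the 8 members higher in both, ATMG00380 had 10.32, 9.88 and 10.25 in P at 72 HAI against 7.75, 7.93 and 7.90 in dry seeds. In T it had 10.95, 10.81 and 10.51 at 72 HAI against 8.11, 8.24 and 8.21 in dry seeds, with no overlap in either fraction.

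The row of ATMG00380 is that of a nuclear tRNA gene for asparagine and correlated at 0.998 with the plastid row ATCG00990. ATMG00930, also higher in both, shares its row with the plastid ATCG00610, and ATMG01070 correlated at 0.992 with the plastid ATCG00230. The plastid rows as a whole rose in this interval, with 11 of 15 higher in P and 13 of 15 higher in T and medians of 2.25 and 2.31. These 15 include the 3 plastid rows just named, so they are not a separate set of values. Among them ATCG00990 and ATCG01140 had the same group means, as did ATCG00970 and ATCG01160. How far plastid transcripts entered the values of these 3 members was not tested. The other 5 were ATMG00370, ATMG00490, ATMG00500, ATMG01060 and ATMG01340. Among these, ATMG01060 correlated at 0.982 with AT2G07743, a locus that holds the values of ATMG01070. A plastid part in the values of ATMG01060 was not tested either. ATMG00490 and ATMG00500, with rows that correlated at 0.982, changed by 1.1 ± 0.18 and 1.0 ± 0.17 in P and 1.2 ± 0.18 and 1.15 ± 0.17 in T.

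**Figure D4:**
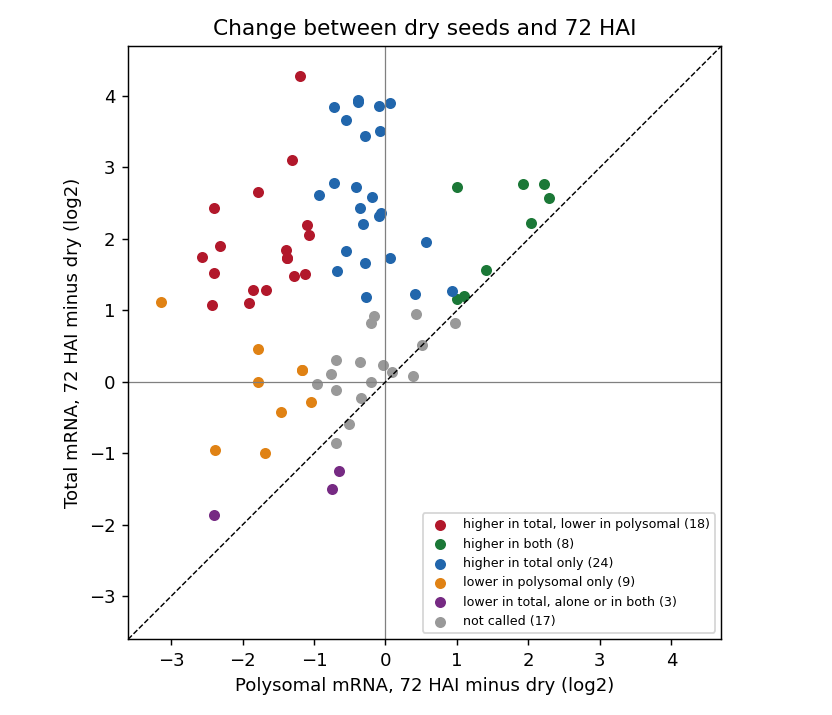
Log2 change between 72 HAI and dry seeds, with polysomal mRNA on the horizontal and total mRNA on the vertical axis, for the 79 members, coloured by their limma calls with the number in each class. The dashed line marks equal change. Of the 79 points 73 lie above it, and 18 members sit at upper left, higher in total and lower in polysomal mRNA.

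Changes of occupancy between consecutive stages were tested next. At 6 HAI against dry seeds occupancy was lower for 17 members and higher for 0 (background 7.05% and 2.17%), and the median was -0.50. At 26 HAI against 6 HAI 0 members were called by limma, and 0.0234% of all genes were called. An unadjusted p below 0.05 was found for 14 members (17.7%) and for 993 of all tested genes (5.82%). At 48 HAI against 26 HAI it was lower for 22 and higher for 2 (3.3% and 1.1%), with a median of -0.59. At 72 HAI against 48 HAI it was lower for 3 and higher for 0 (0.141% and 0.0645%), although the median was -0.57, and this last count was 0 without T at 72 HAI replicate 2, T at 48 HAI replicate 3 or P at 48 HAI replicate 1, and 7 without P at 72 HAI replicate 2. In all, 39 members were called lower in some interval. ATMG00800 and ATMG01040 were lower in the first and the third, ATMG00320 in the third and the last, and ATMG00190 was lower in the first and higher in the third.

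In the first interval, ATMG00960 had 7.50, 7.61 and 7.46 in P against 8.52, 8.37 and 8.47 in T at 6 HAI. In dry seeds it had 8.18, 8.28 and 8.25 in P against 6.69, 6.88 and 7.32 in T, so that the order of the fractions turned round. Its change of occupancy was -2.20 ± 0.22 (adjusted p = 5.4e-06). ATMG00590 went the same way, with 8.52, 8.47 and 8.48 in P against 9.25, 8.92 and 9.18 in T at 6 HAI and 8.94, 8.79 and 8.90 in P against 7.55, 7.73 and 7.69 in T of dry seeds. Its change was -1.84 ± 0.24 (adjusted p = 4.6e-05). ATMG00590 shares its row with AT2G07718, a nuclear protein-coding locus.

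In the third interval, between 26 and 48 HAI, ATMG01310 led with a change of -2.88 ± 0.41 (adjusted p = 6.4e-05), followed by ATMG00750 with -2.62 ± 0.34 (adjusted p = 1.9e-05). Both share their rows with chromosome 2 loci. In ATMG00950 the arrays at 48 HAI were 8.30, 7.87 and 7.99 in P against 10.79, 10.88 and 10.79 in T. At 26 HAI they were 7.34, 7.46 and 8.13 in P against 8.40, 8.18 and 8.51 in T, and the change was -2.05 ± 0.28 (adjusted p = 2.6e-05). Mean P of ATMG00950 went from 7.65 to 8.05 there, while mean T went from 8.36 to 10.82. The 2 members called higher were ATMG00190 (1.12 ± 0.31, adjusted p = 0.028) and ATMG00610 (1.0 ± 0.30, adjusted p = 0.047), both close to the thresholds.

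A list of 14 loci was described on its own. It was written for loci to which general knowledge gives a protein product or a nad exon, which the sources used here do not state, so that they are given by identifier only, and ATMG00080 and ATMG00090 among them hold the same values. The loci were ATMG00080, ATMG00090, ATMG00180, ATMG00210, ATMG00290, ATMG00516, ATMG00520, ATMG00560, ATMG00570, ATMG00830, ATMG00960, ATMG00980, ATMG01120 and ATMG01270. Of these, ATMG00180, ATMG00516, ATMG00830 and ATMG00980 share their rows with chromosome 2 loci. At 72 HAI against dry seeds 3 of the 14 were higher in T with a median of 0.29, against 47 higher and 3 lower of the other 65 members with a median of 1.73. The 3 were ATMG00570, ATMG00830 and ATMG00980.

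At 72 HAI 4 of the 14 were lower in P than in T, with a median of -0.70, against 46 of the other 65 with a median of -2.84. In ATMG00080 and ATMG00090, the widest gap of the 14, the arrays were 8.09, 7.92 and 7.73 in P against 9.88, 9.94 and 9.40 in T, with no overlap (difference -1.83 ± 0.17, adjusted p = 5.8e-09). In ATMG00830 they were 8.41, 8.20 and 7.72 in P against 9.32, 9.03 and 9.13 in T (difference -1.05 ± 0.16, adjusted p = 1.5e-05). The order of the 2 sets was the other way at the first interval. The change of occupancy at 6 HAI against dry seeds was lower for 8 of the 14 with a median of -1.12, against 9 of the other 65 with a median of -0.42, and at 48 HAI against 26 HAI it was called for 0 of the 14 and lower for 22 of the 65. The differences between the 2 sets were not tested. The 14 were also high rows, each with a mean of 8.04 or more in P of dry seeds. Over the 79 members this level correlated at 0.59 with occupancy at 72 HAI. With the change in T between 72 HAI and dry seeds it correlated at -0.69. That change subtracts the dry seed level in T, and the median gap between P and T was small in dry seeds. Part of this correlation is therefore built in. A contrast by list thus cannot be told apart from one by level.

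A split of the members at their dry seed level in P was made after the values had been seen and is described without a test. Between 26 and 48 HAI, T was higher for 28 of the 39 members of lower dry seed level (71.8%) and for 5 of the 40 of higher level (12.5%). Of all tested genes 15.3% were higher, so the second share was near the background.

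The members that share a row with a chromosome 2 tRNA gene were described on their own, since tRNAs are not translated and enter polysomes only as part of the ribosome's work. In T, 8 of the 9 were higher at 72 HAI than in dry seeds (background 33%), with a median of 2.57. In P 4 were higher and 0 lower (30.2% and 31.1%), with a median of 0.10. These 4 include ATMG00380, ATMG00930 and ATMG01070, the members tied above to plastid rows. At 72 HAI, 6 of the 9 were lower in P than in T (background 7.56%). Only identical rows were counted, which leaves out members such as ATMG00190, whose row correlated at 0.999 with that of a tRNA gene. ATMG01340, on the row of a methionine tRNA gene, had 6.85, 7.11 and 6.18 in P against 8.55, 8.70 and 8.22 in T at 72 HAI. In dry seeds it had 5.67, 5.78 and 5.67 in P against 6.36, 5.66 and 5.23 in T, which overlapped. Whether the probes of these rows read the tRNA itself or a longer transcript that contains it was not tested.

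Of the 51 members with no identical nuclear or plastid row, 29 were higher in T at 72 HAI than in dry seeds and 2 lower (background 33% and 27.1%). In P 4 of the 51 were higher and 18 lower (30.2% and 31.1%), and the share lower, 35.3%, was near the background. At 72 HAI 30 of them were lower in P than in T (58.8%, beside 63.3% for all members and 7.56% of all tested genes). With identical rows left aside, 39 of these 51 had an AT2G07 locus as their most closely correlated row, 31 of them at a correlation above 0.95. Of the 51, 49 were distinct. Near copies thus remain among them, and their part in the values was not tested. Counting rows of identical values once moved no count by more than 1.5 times.

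The calls were also read along the genome. Locus numbers follow the order of genes on the molecule, and when the 92 mitochondrial rows were put in that order, the 51 rows lower in P than in T at 72 HAI formed 19 runs. Of these 7 were single rows, 6 were pairs, 2 held 3 rows, 3 held 4 rows and 1 was longer, and no test of clustering was made. The longest run spanned ATMG00740 to ATMG00920. It held 14 rows, all of them members, with occupancies from -4.59 to -1.05 and a median of -3.78. In T their changes between 72 HAI and dry seeds had a median of 2.76 and ranged from -0.99 to 4.28, so that a row at the end of the run, ATMG00920, was not among those that rose. A run of 4 rows, ATMG01230 to ATMG01260, had a median occupancy of -3.34, and a run of 4 from ATMG00310 to ATMG00360 one of -3.07. The third run of 4, ATMG01040 to ATMG01080, ended on an excluded row and had a median of -1.68. The longest stretch with no such call was that of the 7 rows from ATMG00480 to ATMG00520 with a median of -0.32. Adjacent loci may lie on one transcript or share sequence, so the rows of a run are not independent.

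**Figure D5:**
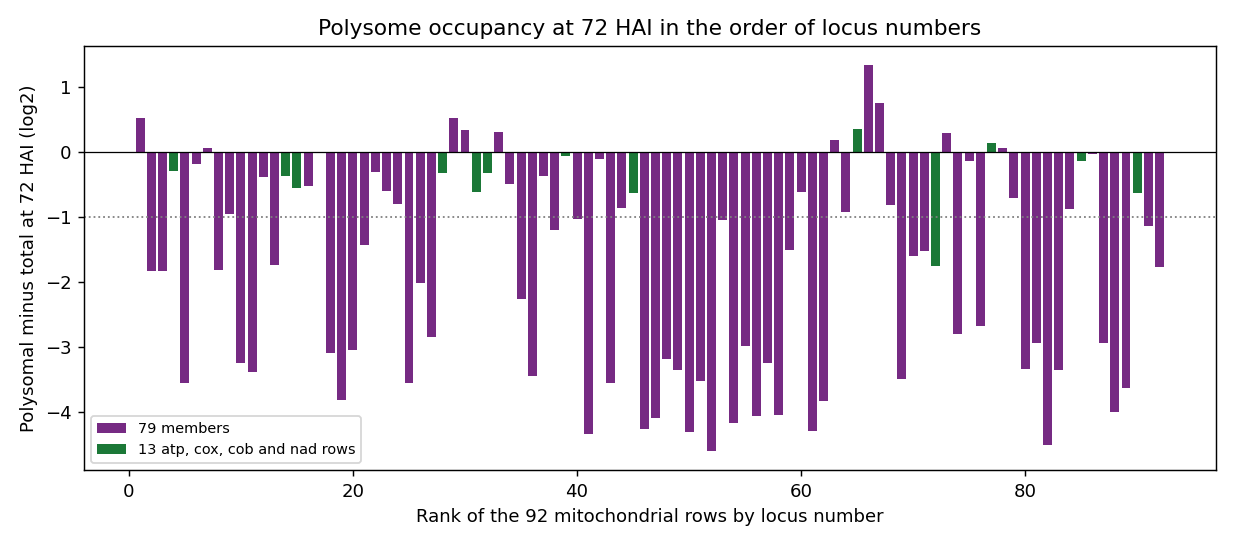
Polysome occupancy at 72 HAI (polysomal minus total mean log2 level) of the 92 mitochondrial rows in the order of their locus numbers, members in purple and atp, cox, cob and nad rows in green. The dotted line marks -1. The 14 rows from ATMG00740 to ATMG00920 form the longest stretch below it, and the green bars lie above it except for 1.

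The 13 excluded atp, cox, cob and nad rows gave the nearest comparison, although members listed above for a nad exon remain on the other side of it. Of these 13, 0 were higher and 1 lower in T at 72 HAI than in dry seeds, with a median of 0.05, against 50 higher and 3 lower among the 79 members. At 72 HAI 1 of the 13 was lower in P than in T, with a median of -0.32, against 50 of the 79 members. At 6 HAI against dry seeds the occupancy of 4 of the 13 was lower with a median of -0.75, and at 48 HAI against 26 HAI 0 were called with a median of 0.46. In 5 of the 13, values were identical to a nuclear row. For the 15 plastid rows, among them ATCG00610 with the values of member ATMG00930, 2 were lower in P than in T at 72 HAI with a median of -0.19. These sets are small, and the differences between them and the members were not tested. The median of the 13 rows in P of dry seeds, averaged over the replicates, was 9.87, beside 7.19 for the members, so the sets also differed in level.

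Nuclear genes whose products serve mitochondrial gene expression were read from the same fit. Of 12 listed genes (RNA polymerases, splicing and decay factors), 4 were higher and 0 lower in T at 6 HAI than in dry seeds (background 16.8% and 9.93%). At 48 HAI against 26 HAI 0 were higher and 8 lower (15.3% and 14.9%). At 72 HAI against dry seeds 0 were higher and 6 lower (33% and 27.1%), with a median of -1.17. RPOTm, a mitochondrial RNA polymerase, had its highest T means at the 6 HAI (5.99) and 26 HAI (5.84) stages. Its T means in dry seeds (4.21) and 48 HAI seeds (4.18) were near the noise level of 4. The 72 HAI mean of 3.53 lay below that level, so the size of these changes is uncertain. PNPase (AT5G14580), the mitochondrial polynucleotide phosphorylase that degrades RNA from the 3′ end, averaged 5.10 in T at 48 HAI against 7.48 at 26 HAI. BSM (AT4G02990), also on this list, kept its level over that interval, with T means of 6.91 before and 6.84 after. Between dry seeds (5.61) and 72 HAI (5.93) the T change of BSM was above 0, while 11 of the 12 genes changed by less than 0. Of 3 nuclear genes of cytochrome c maturation 2 were lower and 0 higher in T at 72 HAI than in dry seeds. Of 7 mitochondrial ribosomal protein genes 4 were higher and 0 lower in T at 6 HAI than in dry seeds, with a median of 1.33. At 72 HAI against dry seeds 1 of the 7 was higher (14.3%, below the background) and 0 lower. The sets hold few genes. These lists were written with earlier results of the data known, and their part in the members' changes was not tested.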

How the data were processed

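Total and polysomal mRNA were measured at 5 stages with 3 replicates each. The values are log2 levels that the authors computed by RMA with a custom probe set definition (Brainarray cdf, version 17.1.0) and deposited for 27827 genes with no noise filter applied. The labels name whole-transcript labelling kits and the methods a 3′ kit, which is not settled here. The extraction buffer held cycloheximide and chloramphenicol, which halt cytosolic and organellar ribosomes.

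In this work a linear model with 1 mean per group was fitted to all 30 arrays with limma 3.58.1 in R 4.3.3, and p-values were adjusted over the 17061 genes whose 3 replicates all exceeded 4 in some group. The study gives a larger number of genes for the filter it states. The reason is not known here, and every background share in the text refers to the 17061. The fit was tested on simulated data. Alternatives were a filter at 5 or none, equal array medians, quantile normalization, only the compared groups, replicate blocks and leaving out each array. The number of arrays limits the precision, and a replicate number in the labels was not stated to tie an array to a growth block. Over 15 comparisons the correlations of same-numbered arrays ran from -0.07 to 0.26, with every one above 0.1 in 1 comparison, so the numbers were not taken as pairs. Members to be named were those of a list of loci with a known product, given here by identifier only, the 2 largest called increases and decreases among the other members in each comparison, and the 3 highest and 3 lowest of those by mean level. Further members are named where a small count or an unusual pattern singled them out after their values were seen. Members and lists were chosen with earlier results of these data known. A further rule, on the protein identity of copies on chromosome 2, was not applied, and identical array values were used to find copies instead.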

Additional observations from a re-analysis of the deposited data

Results flagged for a closer look

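Of the 48 named members, 27 differed between consecutive stages in the gap between polysomal and total mRNA, in 30 cases in all. The test was limma's test of that difference, adjusted over all tested genes. Some of these members were named because their called changes in these same comparisons were the largest, so the list is no separate evidence. Of all tested genes, 7.05% were called lower and 2.17% higher at 6 HAI against dry seeds. The shares were 3.3% and 1.1% at 48 HAI against 26 HAI, and 0.141% and 0.0645% at 72 HAI against 48 HAI.

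At 6 HAI against dry seeds the log2 change of occupancy was -1.57 for ATMG00180, -1.17 for ATMG00190, -1.12 for ATMG00520, -1.49 for ATMG00560, -1.63 for ATMG00570, -1.84 for ATMG00590 and -1.14 for ATMG00800. It was -1.35 for ATMG00830, -2.20 for ATMG00960, -1.29 for ATMG00980, -1.74 for ATMG01000, -1.03 for ATMG01040, -1.12 for ATMG01270 and -1.13 for ATMG01280. All 14 were negative.

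At 48 HAI against 26 HAI it was -1.98 for ATMG00240, -1.75 for ATMG00450, -1.73 for ATMG00600, -2.62 for ATMG00750, -1.77 for ATMG00760, -1.62 for ATMG00800 and -2.03 for ATMG00820. It was -2.02 for ATMG00860, -2.05 for ATMG00950, -2.12 for ATMG01040, -2.21 for ATMG01300 and -2.88 for ATMG01310, and it was positive only for ATMG00190 (1.12) and ATMG00610 (1.0).

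At 72 HAI against 48 HAI it was -1.74 for ATMG00170 and for ATMG00620, which hold the same values.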

How the results depend on the processing

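All alternatives gave the members the same direction wherever a named member was called. Over 223 pairs of a named member and a comparison that called it, 2855 alternative values were computed, of which 2688 stayed called, 167 were no longer called and 0 reversed. Counts of called members moved by more than 1.5 times in few cases. With array medians set equal, 5 members in place of 13 were called in T at 26 HAI against 6 HAI. With quantile normalization the count was 10 in place of 16 in T and 9 in place of 5 in P at 6 HAI against dry seeds, 12 in place of 7 for P against T at 6 HAI, and 6 in place of 3 for the change of occupancy at 72 HAI against 48 HAI. That last count was 5 with a replicate block that paired polysomal and total mRNA and 0 with only the compared groups in the fit. The replicate block moved no other count by more than 1.5 times, and every array correlated best with its own number in 3 of 15 comparisons. A filter at 5 or none, and counting identical rows once (an alternative added after the data were seen), moved none. The cause of these moves was not tested.

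Leaving out 1 array at a time gave, for T, 12 to 17 called members at 6 HAI against dry seeds, 10 to 19 at 26 HAI against 6 HAI, 28 to 35 at 48 HAI against 26 HAI, 3 to 6 at 72 HAI against 48 HAI and 54 to 56 at 72 HAI against dry seeds. For P the ranges over the same intervals were 4 to 10, 3 to 9, 4 to 11, 39 to 45 and 32 to 37. For P against T they were 4 to 8 in dry seeds and 6 to 11, 6 to 24, 39 to 41 and 48 to 54 at 6, 26, 48 and 72 HAI. For the change of occupancy they were 14 to 17, 0 in every case, 16 to 27 and 0 to 7 in the 4 intervals in order.

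Changes in level are relative to the other genes of an array, and members near 4 lie at the noise level, where background signal limits how well the size of a drop in P or of a rise over a low dry seed level in T is measured.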
